A study of Mus musculus with 4 samples.

Results

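The 10 genes described here encode the major histocompatibility complex (MHC) class II machinery of the mouse. They were taken by gene symbol, and all 10 were found among the 24421 genes of the count table and had enough reads to be tested. They are the transactivator gene Ciita, the genes of the classical chains (H2-Aa, H2-Ab1, H2-Eb1), the invariant chain gene Cd74, the DM genes H2-DMa, H2-DMb1 and H2-DMb2, and the DO genes H2-Oa and H2-Ob. RNA sequencing was done on LSK cells, the lineage-negative, Kit-positive, Sca-1-positive fraction of bone marrow that holds stem cells and multipotent progenitors. Cells were sorted from mice labelled Zfp521-/- (KO, 2 libraries) and from littermates of wild type genotype (WT, 2 libraries). Zfp521 encodes a zinc finger transcription cofactor, and the labels name no tissue or cell type to which its loss was limited. The sources used here do not give strain, age, sex or the structure of the mutant allele. The libraries are described as independent RNA samples from cell pools, without saying whether each pool came from separate animals, so the p-values reflect variation among these preparations, part of which can be technical.

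Class II molecules carry peptides from endosomes to the cell surface and present them to CD4 T cells. An alpha and a beta chain assemble on the invariant chain, DM later exchanges the invariant chain fragment for peptide, and DO, found mostly in B cells and some dendritic cells, restrains DM. Transcription of the classical, invariant chain and DM genes depends on CIITA, a coactivator that does not bind DNA itself but docks on the RFX, CREB and NF-Y proteins at a conserved promoter module of X and Y boxes. Dendritic cells, B cells and macrophages are the usual sites of high class II expression.

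Promoter windows, 250 bases before to 50 bases after the gene start, were read for 7 of the 10 genes from RefSeq (GRCm38.p6), leaving out Ciita, H2-Ab1 and Cd74, which are 3 of the 5 genes that rose in KO. The module was searched on both strands as an X box core GNAAC followed, after 18 to 35 bases, by a Y box ATTGG. The search was added after the expression values had been seen, and the boxes do not overlap. The pair stood in the windows of 5 of the 7 genes, for which 8 windows were read, and in 2.96% of all 32851 RefSeq windows. The module is known from class II promoters, so its presence in these genes carries no test. GNAAC alone stood in 84.8% of them and ATTGG alone in 37.4%. The 5 stretches are shown because 2 of these genes, H2-Aa and H2-Eb1, rose in KO, while the other 3 did not pass the test. All lie on chromosome 17, at chr17:34287847-34287924 (H2-Aa, minus strand), chr17:34305756-34305832 (H2-Eb1), chr17:34153077-34153154 (H2-DMb1), chr17:34092283-34092360 (H2-Oa) and chr17:34238798-34238872 (H2-Ob), the last 4 on the plus strand. Capitals mark the X box core and the Y box, with 20 bases on either side.
H2-Aa: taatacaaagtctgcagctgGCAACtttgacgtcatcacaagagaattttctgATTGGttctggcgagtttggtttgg
H2-Eb1: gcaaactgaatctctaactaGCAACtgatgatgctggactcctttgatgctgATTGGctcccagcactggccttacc
H2-DMb1: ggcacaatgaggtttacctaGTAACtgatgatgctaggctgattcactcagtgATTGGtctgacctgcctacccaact
H2-Oa: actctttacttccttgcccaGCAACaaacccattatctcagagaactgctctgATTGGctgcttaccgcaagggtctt
H2-Ob: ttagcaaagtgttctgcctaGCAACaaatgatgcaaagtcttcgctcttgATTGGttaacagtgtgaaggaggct
The 2 boxes were 25 bases apart in H2-Ob, 27 in H2-Eb1 and 28 in the other three. The windows of H2-DMa and H2-DMb2 did not hold these letters in this arrangement, which says nothing of whether the factors bind there.

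Library totals were 22000036 and 17787425 counts in KO and 29863594 and 25813391 in WT. A floor of 3 counts stands for between 0.108 and 0.152 CPM (counts scaled by library size, itself adjusted by TMM, a trimmed mean of gene ratios), and floors cover counting error only. Zfp521 had 308 and 215 counts in KO and 1561 and 1429 in WT. The sorting antigens were present, with Kit at 697 and 702 CPM in KO and 617 and 708 CPM in WT, and the Sca-1 gene Ly6a at 37.3 and 67.0 CPM in KO and 47.7 and 36.9 CPM in WT. WT replicate 2 stood apart, with 5606 counts from 4 Y-linked genes against 9 to 14 in each other library, so the WT group mixed a male with a female pattern. The edgeR quasi-likelihood test, with p-values adjusted over 14140 genes by Benjamini-Hochberg and a threshold of 0.05, called 6.78% of them, 3.77% as higher and 3.01% as lower in KO. Of these calls 55.6% were higher, against 69.7% with upper quartile factors.

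Of the 10 class II genes 5 rose in KO and none fell, beside 3.77% higher and 3.01% lower among all genes and 6.78% called in either direction. They were Ciita, H2-Aa, H2-Ab1, H2-Eb1 and Cd74, with folds from 4.49 to 8.75. H2-DMa, H2-DMb1, H2-DMb2, H2-Oa and H2-Ob did not pass the test. At an unadjusted p under 0.05, 6 were higher and 0 lower. The share of all genes at that threshold was not counted, so such counts have no background, here and below. DESeq2 called 5 higher and 0 lower, beside 858 higher and 816 lower among the 17659 genes it tested. The same 5 genes were called under all 11 alternatives, which include leaving out each library in turn and with it the Y-positive WT library. The median log2 fold change over the 10 genes was 1.57, and over all genes tested it was 0.02. Both KO libraries lay above both WT libraries for 7 of the 10 genes, as they did for 28.8% of all genes tested. In bulk libraries such as these, more cells of a type and more RNA per cell cannot be told apart.

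Ciita, the gene of the class II transactivator, lies on chromosome 16 (10480059 to 10528418, mm10, plus strand). It had 362 and 333 counts in KO, against 103 and 92 in WT. In CPM these were 16.4 and 16.9 in KO and 3.70 and 3.70 in WT, so the groups did not overlap and replicates lay close together. The log2 fold change was 2.17 (SE 0.34, edgeR adjusted p = 0.00491), with a 95% confidence interval for the fold from 2.67 to 7.55. Of its exonic bases, 329 are shared with Dexi on the other strand, and Dexi had 172 and 203 counts in KO and 183 and 225 in WT.

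The classical chain genes form the peptide-binding molecules themselves. H2-Aa, the alpha chain of I-A, had 5041 and 4465 counts in KO, against 810 and 608 in WT. That was 228 and 227 CPM in KO, against 29.1 and 24.5 CPM in WT, and its log2 fold change was 3.08 (SE 0.17, adjusted p = 6.4e-06). H2-Ab1, its beta chain partner, had 6361 and 4263 counts in KO, against 884 and 899 in WT. Its CPM was 288 and 217 in KO and 31.8 and 36.2 in WT, with KO replicate 1 the higher of the KO libraries and a log2 fold change of 2.89 (SE 0.19, adjusted p = 1.7e-05). H2-Eb1, the beta chain of I-E, had 1360 and 1311 counts in KO, against 211 and 175 in WT. Its CPM was 61.5 and 66.6 in KO and 7.58 and 7.04 in WT, a log2 fold change of 3.13 (SE 0.23, adjusted p = 3.2e-05). For none of these 3 genes did the groups overlap, and the 95% intervals of the 3 log2 fold changes overlapped one another, from 2.71 to 3.46, 2.48 to 3.31 and 2.62 to 3.64.

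The I-E alpha chain, H2-Ea-ps in the mm10 annotation, had 0 counts in every library, which allows up to 0.108 to 0.152 CPM. In C57BL/6 mice, the strain of the reference genome, the gene is known to be silent because of a promoter deletion, and H2-Eb1 RNA then has no alpha chain partner of its own. Its neighbour H2-Eb2 had 0 and 3 counts in KO and 6 and 8 in WT, too few to be tested. Class II genes are highly polymorphic, and reads of another haplotype can align less well to the reference.

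Cd74, the invariant chain that chaperones new class II dimers and blocks their groove, had the most counts of the 10 genes in KO. It had 8704 and 5557 counts in KO, against 1585 and 1332 in WT. Its CPM was 394 and 282 in KO and 56.9 and 53.6 in WT, with wide spread between the KO libraries and no overlap between groups. The log2 fold change was 2.61 (SE 0.19, adjusted p = 3.2e-05), with an interval from 2.20 to 3.02. Cd74 lies on chromosome 18 (60803848 to 60812652), apart from the other class II genes.

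**Figure D1:**
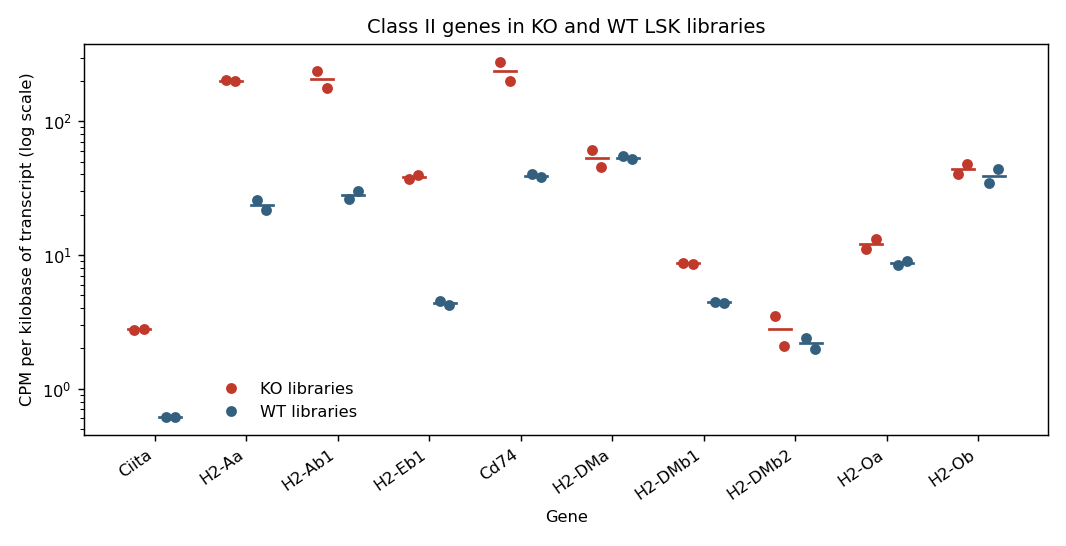
Expression of the 10 class II genes in each library, in CPM per kilobase of the longest coding transcript on a log scale, with KO left of WT and bars at the mean of 2 libraries. Ciita, the classical chain genes and Cd74 stand clear of WT in both KO libraries, while the points of H2-DMa, H2-DMb2 and H2-Ob interleave.

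The DM genes, whose product loads peptide, did not pass the test. H2-DMa had 2704 and 1788 counts in KO, against 3056 and 2612 in WT. In CPM it was at 122 and 90.8 in KO and 110 and 105 in WT, so the KO values enclosed those of WT. Its log2 fold change was -0.01 (SE 0.18, adjusted p = 0.978), with a 95% interval from -0.40 to 0.38 and thus for the fold from 0.756 to 1.30. H2-DMa shares 360 exonic bases with Brd2, a gene on the opposite strand that is broadly expressed. Brd2 was at 334 and 320 CPM in KO and 342 and 360 CPM in WT. The strand setting of the counting is not given, and the part of Brd2 reads in the H2-DMa value was not tested.

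H2-DMb1 and H2-DMb2 are near-identical copies of the DM beta chain gene, so the split of reads between them is uncertain. H2-DMb1 had 272 and 236 counts in KO, against 175 and 152 in WT. Its CPM was 12.3 and 11.99 in KO and 6.29 and 6.12 in WT, without overlap between the groups. The log2 fold change was 0.97 (SE 0.34, 95% interval 0.22 to 1.72), with an unadjusted p of 0.0159 and an adjusted p of 0.108 (edgeR), and between 0.0553 and 0.418 under the 11 alternatives. H2-DMb2 had 115 and 61 counts in KO, against 99 and 73 in WT, and its groups overlapped. Its log2 fold change was 0.35 (SE 0.54, adjusted p = 0.729), and the wide interval from -0.83 to 1.53 leaves its direction undetermined at this depth.

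The DO genes, which encode the inhibitor of DM, did not pass the test either. H2-Ob, the DO beta chain, had 2403 and 2512 counts in KO, against 2553 and 2895 in WT. Its CPM was 109 and 128 in KO and 91.7 and 117 in WT, and the ranges overlapped. The log2 fold change was 0.18 (SE 0.18, adjusted p = 0.560), with an interval for the fold from 0.868 to 1.48. H2-Oa, the DO alpha chain, had 265 and 280 counts in KO, against 254 and 243 in WT. In CPM it was at 11.98 and 14.2 in KO and 9.12 and 9.78 in WT, with no overlap, and its log2 fold change of 0.47 (SE 0.32, interval -0.23 to 1.17) did not pass (adjusted p = 0.387). H2-Oa shares 321 exonic bases with the antisense gene BC051537, which had 38 and 20 counts in KO and 22 and 37 in WT.

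**Figure D2:**
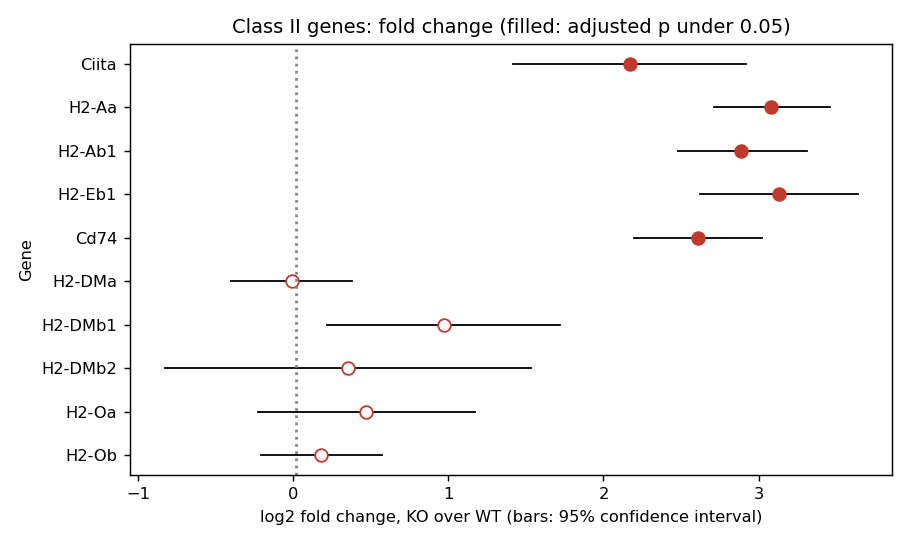
Log2 fold change of KO over WT for each class II gene, with 95% confidence intervals from the edgeR fit across all genes; filled points passed the adjusted threshold and the dotted line is the median of all genes tested, 0.02. The 5 filled points lie between 2.17 and 3.13, and the upper ends of all 5 open intervals lie below the lower ends of those of the classical chain genes and Cd74.

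The order of levels, per kilobase of the longest coding transcript, differed between the genotypes. In KO the order from the top was Cd74 at 240 ± 55.8, H2-Ab1 at 208 ± 41.4 and H2-Aa at 202 ± 0.666 CPM per kilobase (SD, n = 2 here and below), and the ranges of these neighbours overlapped. H2-DMa at 53.1 ± 11.1 and H2-Ob at 44.2 ± 5.03 followed and also overlapped each other, and then came H2-Eb1 at 38.4 ± 2.17, H2-Oa at 12.04 ± 1.46, H2-DMb1 at 8.65 ± 0.155, H2-DMb2 at 2.80 ± 1.001 and Ciita at 2.77 ± 0.0650 CPM per kilobase.

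In WT the DM alpha chain gene, which may hold Brd2 reads, had the highest mean on this length. H2-DMa stood at 53.6 ± 1.63 CPM per kilobase, above Cd74 at 39.2 ± 1.66 and H2-Ob at 39.0 ± 6.58, whose ranges overlapped. H2-Ab1 at 28.0 ± 2.59 and H2-Aa at 23.8 ± 2.896 came next, and H2-Oa at 8.69 ± 0.428 lay above H2-DMb1 at 4.42 ± 0.0843 and H2-Eb1 at 4.38 ± 0.227, which overlapped. H2-DMb2 was at 2.19 ± 0.294 and Ciita was lowest at 0.616 ± 0.000431 CPM per kilobase. In WT LSK cells the I-A chain genes thus lay below H2-Ob, and in KO they lay above it. Part of the order depends on the length chosen. Per kilobase of the union of all annotated exons, Cd74 led in both genotypes, with 234 and 168 CPM per kilobase in KO and 33.9 and 31.9 in WT, above H2-DMa with 35.5 and 26.4 in KO and 31.8 and 30.5 in WT. The place of both I-A chain genes above H2-Ob in KO and below it in WT was the same with that length.

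Summed over the 10 genes, the per-length level was 883 and 740 CPM per kilobase in KO, against 202 and 206 in WT. The classical chains and Cd74 made up 85.5% and 83.8% of this sum in KO and 48.0% and 45.6% in WT. The DM genes made up 8.29% and 7.56% in KO and 30.5% and 28.6% in WT, and the DO genes 5.86% and 8.23% in KO and 21.2% and 25.6% in WT.

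Ratios between genes of the same library do not depend on library size or normalization. With 2 libraries against 2, the smallest p that an exact two-sided permutation test can give is 0.333, so none of the 12 ratios computed could pass a threshold of 0.05. Each ratio is of levels per kilobase. DM to the classical chains was 0.154 and 0.133 in KO, against 1.09 and 1.05 in WT, a 7.49-fold lower mean in KO (exact permutation p = 0.333). DO to the classical chains was 0.109 and 0.145 in KO, against 0.756 and 0.944 in WT, a 6.73-fold lower mean. With H2-DMa left aside for its overlap with Brd2, the DM beta chains stood to the classical chains as 0.0258 and 0.0253 in KO and 0.122 and 0.114 in WT, 4.603-fold lower in KO. With union exon length the levels of these ratios were higher, with means of 0.211 in KO and 1.53 in WT for DM, 0.165 in KO and 1.08 in WT for DO and 0.0502 in KO and 0.231 in WT for the DM beta chains. In these 3 ratios the groups lay far apart compared with the spread within each.

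In the other ratios the genotypes lay closer together, with overlap in some and not in others. H2-Aa to H2-Ab1, the 2 chains of I-A, was 0.852 and 1.12 in KO and 0.985 and 0.727 in WT, so that the groups overlapped. H2-Eb1 to H2-Ab1 was 0.155 and 0.223 in KO and 0.173 and 0.141 in WT, also overlapping. With union exon length H2-Aa to H2-Ab1 averaged 0.622 in KO and 0.538 in WT, and H2-Eb1 to H2-Ab1 0.344 in KO and 0.286 in WT, so the level of each ratio depends on the length while its difference between genotypes hardly does. DO to DM was 0.706 and 1.09 in KO and 0.693 and 0.896 in WT, again with overlap, and its difference changed sign on leaving out KO replicate 2 or WT replicate 1. H2-Oa to H2-Ob was 0.271 and 0.274 in KO and 0.244 and 0.206 in WT, without overlap. The alpha chain RNA was thus the scarcer one in every library. H2-DMa to its beta chain genes was 4.97 and 4.26 in KO and 7.96 and 8.27 in WT, an alpha chain excess in every library, with the overlap with Brd2 as above. For that ratio the groups did not overlap, and the mean was 1.76-fold lower in KO. DO to the DM beta chains alone was 4.22 and 5.73 in KO and 6.22 and 8.30 in WT, and H2-DMb1 to its near-identical copy H2-DMb2 was 2.50 and 4.09 in KO and 1.87 and 2.20 in WT, with no overlap in either.

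Cd74 and Ciita had smaller log2 fold changes, 2.61 and 2.17, than the classical chain genes. Their 95% intervals, 2.20 to 3.02 and 1.42 to 2.92, overlapped that of each classical chain gene. Cd74 to the classical chains was 0.586 and 0.477 in KO, against 0.714 and 0.682 in WT, a 1.32-fold lower mean in KO. With union exon length the ratio averaged 1.05 in KO and 1.37 in WT, so whether Cd74 lies below or above the classical chains depends on the length. The classical chains to Ciita was 175 and 149 in KO, against 91.8 and 90.5 in WT, a 1.77-fold higher mean in KO, and with union exon length it averaged 109.6 in KO and 61.9 in WT. For both ratios the groups did not overlap (exact permutation p = 0.333 each).

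**Figure D3:**
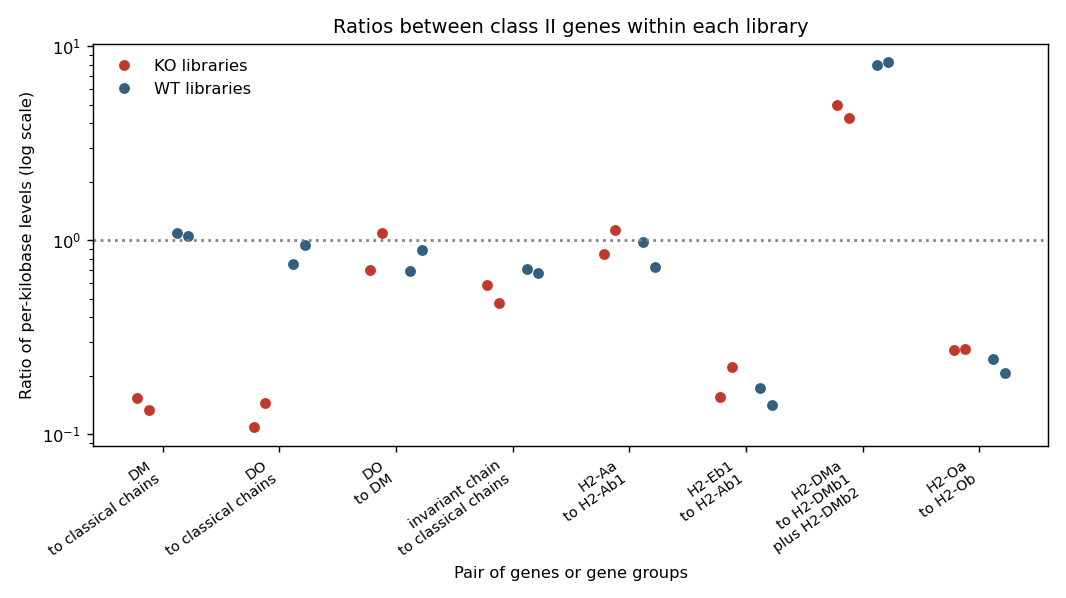
Ratios of per-kilobase levels between class II genes within each library, on a log scale, with KO left of WT and the dotted line at equal levels. DM and DO relative to the classical chains lie well under the WT points in both KO libraries, whereas H2-Aa to H2-Ab1 and DO to DM overlap between the genotypes.

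On chromosome 17 the 8 class II genes of the H2 complex lie among genes of other functions, and the 3 that rose are neighbours there. In mm10 H2-Ab1 spans 34257689 to 34269419, H2-Aa 34282744 to 34287823 and H2-Eb1 34305867 to 34316674. H2-Ob, the gene before them, spans 34238903 to 34254414 and, as given above, did not pass. H2-Oa starts at 34092340, H2-DMa at 34119541, H2-DMb2 at 34143307 and H2-DMb1 at 34153072.

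Between the DM genes and H2-Ob lie 4 genes of the class I pathway, none of which passed the test with all libraries. Psmb9, an immunoproteasome subunit, was at 123 and 95.5 CPM in KO and 162 and 145 CPM in WT (log2 fold change -0.49, adjusted p = 0.105). Psmb8, another subunit, had a log2 fold change of -0.39 (adjusted p = 0.303), and the peptide transporter gene Tap1 had 0.34 (adjusted p = 0.286). Without KO replicate 1, Psmb9 and Psmb8 were called lower (adjusted p = 0.0158 and 0.0123), and Psmb9 was also called lower with no filter (adjusted p = 0.0392). Of 13 listed genes of the region outside the 10, 10 could be tested, and edgeR called 0 higher and 0 lower. At an unadjusted p under 0.05 there was 1 in each direction, and DESeq2 called 0. Notch4, farther along the chromosome, had the largest fold change of them, 2.17 (SE 0.85, adjusted p = 0.14), with only 0.216 CPM in WT replicate 1. It passed under 3 of the 11 alternatives, among them edgeR with no filter (adjusted p = 0.000944) and leaving out WT replicate 2.

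**Figure D4:**
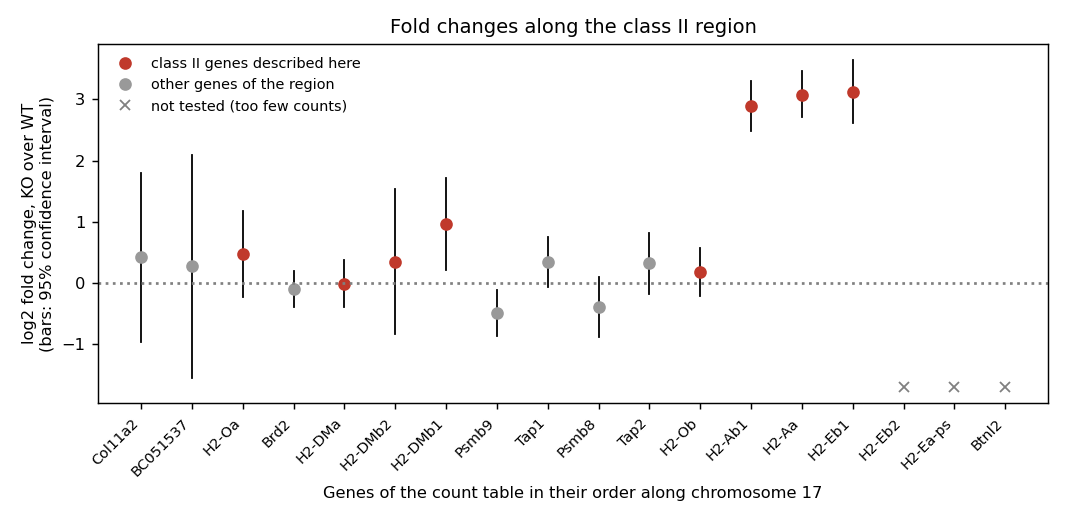
Log2 fold change of KO over WT, with 95% confidence intervals, for the 18 genes of the count table in the class II region, in their order along chromosome 17; crosses mark genes with too few counts to be tested. The neighbours H2-Ab1, H2-Aa and H2-Eb1 lie between 2.89 and 3.13, and no other tested gene shown exceeds 0.97.

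Genes that act on Ciita or at class II promoters were called about as often as genes in general (6.78% in either direction). Of 11 genes of the promoter complex (RFX, NF-Y, CREB and coactivators) edgeR called 0 higher and 0 lower, with a median log2 fold change of 0.16. At an unadjusted p under 0.05, 1 was higher and 2 were lower, and DESeq2 called 1, Nfya, lower. Under 4 of the 11 alternatives, DESeq2 and no filter among them, Nfya passed. Nfya, a subunit of the Y box factor, was at 277 and 261 CPM in KO and 374 and 385 CPM in WT (log2 fold change -0.50, adjusted p = 0.0537), and Rfx5, the X box factor, at 64.1 and 68.3 CPM in KO and 55.4 and 63.4 CPM in WT (adjusted p = 0.633). Ncoa1 (0.47), Creb1 (-0.34) and Crebbp (0.28) had the next smallest p.

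Of 15 inducers and repressors of Ciita 1 rose and 1 fell, with a median of -0.01, and without KO replicate 1 there were 3 higher and 3 lower. Irf8, a transcription factor of dendritic cells and monocytes, was at 72.2 and 50.7 CPM in KO, against 31.8 and 24.9 CPM in WT (log2 fold change 1.12, SE 0.23, adjusted p = 0.0192). Ezh2, the Polycomb methyltransferase that can silence Ciita, was at 140 and 117 CPM in KO, against 232 and 214 CPM in WT (-0.80, SE 0.16, adjusted p = 0.0152). Both calls were lost on leaving out WT replicate 1 or WT replicate 2, where fewer genes were called over the whole table. Over the 11 alternatives the log2 fold change lay between 0.83 and 1.34 for Irf8 and between -0.94 and -0.68 for Ezh2. Among the genes of the interferon gamma pathway, the main inducer of Ciita outside professional presenting cells, Ifngr1 was at 84.4 and 121 CPM in KO and 62.1 and 70.2 CPM in WT (0.63, adjusted p = 0.0787). Ifngr1 passed without KO replicate 1 (adjusted p = 0.00511) and in DESeq2 (adjusted p = 0.0422). Irf4, which promotes Ciita transcription in some cell types, had a log2 fold change of -0.71 (adjusted p = 0.129). Prdm1 (0.81), Spi1 (-0.55) and Irf2 (-0.37) also had an unadjusted edgeR p under 0.05 and did not pass.

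In the endosomal machinery 1 of 15 genes rose, beside 3.77% of all genes tested. Of 15 genes of processing and transport, Cst3, the inhibitor cystatin C, was the 1 that passed, higher at 218 and 195 CPM in KO, against 146 and 122 CPM in WT (0.62, SE 0.16, adjusted p = 0.0409). That call was lost on leaving out WT replicate 1 or WT replicate 2, where fewer genes were called over the whole table. The log2 fold change of Cst3 lay between 0.48 and 0.75 over the 11 alternatives. The cysteine proteases that trim the invariant chain or antigen did not pass, with log2 fold changes of 0.59 for Ctss, 0.52 for Ctsl and 0.87 for Ctsh. Ctss (without KO replicate 1), Ctsl and Ctsh each passed under 1 of the 11 alternatives. The list median was 0.14.

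March1 is the ubiquitin ligase that removes class II molecules and CD86 from the surface of dendritic cells and B cells. It was the 1 of 10 tested ligases and partners that rose, beside 3.77% of all genes tested. It had 326 and 218 counts in KO, against 51 and 37 in WT. Its CPM was 14.7 and 11.1 in KO and 1.83 and 1.49 in WT, with a log2 fold change of 2.95 (SE 0.42, adjusted p = 0.0029), and it passed under all 11 alternatives. The classical chains to March1, per kilobase, was 135 and 158 in KO and 129 and 156 in WT. Its relative March8 was at 21.9 and 24.4 CPM in KO and 21.8 and 23.4 CPM in WT. The costimulatory ligand genes Cd80 (0.543 and 2.29 CPM in KO, 0.539 and 0.121 in WT) and Cd86 (8.59 and 14.4 CPM in KO, 8.44 and 9.10 in WT) did not pass, and nor did the tetraspanin genes Cd81 (-0.43) and Cd37 (-0.37), both of which passed without KO replicate 1 (adjusted p = 0.00605 and 0.00760).

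Of 20 tested class I genes 1 rose and none fell, a share near that of all genes. At an unadjusted p under 0.05, 3 were higher and 5 lower, DESeq2 called 2 higher and 1 lower, and without KO replicate 1 there were 2 higher and 5 lower. H2-Q4 was the one that passed, at 48.6 and 58.6 CPM in KO and 29.2 and 32.2 CPM in WT (0.80, SE 0.21, adjusted p = 0.0422), and the list median was -0.12. H2-Q4 has near-identical relatives, and its call was lost on leaving out WT replicate 1, WT replicate 2 or KO replicate 2. Its log2 fold change lay between 0.65 and 0.93 over the 11 alternatives. The heavy chain gene H2-K1 was at 905 and 951 CPM in KO and 861 and 843 CPM in WT, and the light chain gene B2m at 1412 and 1480 CPM in KO and 1995 and 1695 CPM in WT, and neither passed. Of the chaperone genes, Pdia3 had a log2 fold change of -0.55 (adjusted p = 0.0613) and Canx -0.44 (adjusted p = 0.0993). Apart from the chaperones, H2-T23 had 0.65 (adjusted p = 0.0533). These 3 non-calls depended on the setting. H2-T23 and Pdia3 passed in DESeq2 (adjusted p = 0.0199 and 0.0188). In edgeR with no filter H2-T23, Pdia3 and Canx passed (adjusted p = 0.0168, 0.00764 and 0.0323). H2-T23 also passed in edgeR with upper quartile factors (adjusted p = 0.035) and the stricter filter (adjusted p = 0.0441).

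Over the 4 libraries, the genes with the profile most like the mean profile of H2-Aa, H2-Ab1, H2-Eb1 and Cd74 were March1, Xcr1, Ltbp1, Tinagl1 and Sdc2, among 11455 protein-coding genes with a mean of at least 2 CPM. Likeness was the root mean square distance of centred log2 CPM, which was 0.11, 0.11, 0.11, 0.12 and 0.17 for these genes and between 0.12 and 0.19 for the 4 class II genes themselves. It describes 4 libraries, in which any gene with a similar fold change is close, and carries no test. Xcr1, a chemokine receptor of type 1 conventional dendritic cells, was at 32.3 and 35.1 CPM in KO and 4.49 and 4.43 CPM in WT (2.92, adjusted p = 0.000250). The other log2 fold changes were 3.20 for Ltbp1, 2.77 for Tinagl1 and 3.11 for Sdc2. Ltbp1 binds latent TGF-beta, Tinagl1 is a matrix protein and Sdc2 a heparan sulfate proteoglycan. Ltbp1 lost its call on leaving out WT replicate 1 or 2, with log2 fold changes between 2.99 and 3.42 over the 11 alternatives.

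Markers of cell types that carry class II were compared over the same libraries. Beside them, 3.77% of all genes tested were called higher and 3.01% lower in KO. Of 16 tested markers of conventional dendritic cells, 6 were higher in KO and none lower (8 and 0 at an unadjusted p under 0.05, 6 and 0 in DESeq2, and 4 to 6 higher with a library left out). The summed level of the list was 1164 and 1199 CPM in KO and 838 and 896 CPM in WT, most of it from Flt3, Wdfy4 and Ppt1, of which Flt3 is also a marker of LSK cells. Besides Xcr1, the receptor gene Clec9a (17.95 and 19.1 CPM in KO, 1.04 and 1.53 in WT), Naaa (2.34), Id2 (2.14) and Cadm1 (2.34) rose. The call of Cadm1 was lost without WT replicate 2. Batf3, a transcription factor of these cells, had 35 and 18 counts in KO and 0 and 0 in WT. Against a floor of 3 counts per WT library its level was at least 10.9-fold higher. Its call was lost on leaving out WT replicate 1, WT replicate 2 or KO replicate 1.

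The list median of the conventional dendritic cell markers was 0.61, and the same with Batf3 at its bound. Of the 16 tested, 10 did not pass and 13 had a positive log2 fold change. Sirpa (-0.36), Ccr7 (-0.39) and Fscn1 (-0.25) had negative values and did not pass. Itgax, Itgae, Zbtb46 and Clec10a had positive values and did not pass either. Clec4a4 and Ccl22 were at 0 in every library, and Cd209a, a marker of type 2 cells, had at most 3 counts in any. The classical chains to Xcr1, per kilobase, was 65.6 and 53.3 in KO and 56.1 and 56.1 in WT, and the classical chains to Clec9a was 87.4 and 72.3 in KO and 179 and 120 in WT. The part of dendritic cells in the class II values was not tested.

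The B cell markers that passed fell, beside 3.01% of all genes tested that were called lower in KO. Another 5 of the 12 had a positive log2 fold change without passing, among them Cr2 (1.31) and Fcer2a (1.05). Of 12 tested, 3 fell and none rose (2 higher and 5 lower at an unadjusted p under 0.05, 0 higher and 4 lower in DESeq2, 1 higher and 5 lower without KO replicate 1, and 0 higher and 2 lower without WT replicate 2), among them Cd79a, a chain of the B cell receptor complex, at 13.7 and 7.37 CPM in KO and 45.1 and 50.2 CPM in WT (-2.18), and the transcription factor gene Pax5 (-2.05), the second not without WT replicate 2 (adjusted p = 0.0877). The summed level of the B cell list was 102 and 98.4 CPM in KO and 174 and 199 CPM in WT, and no marker was at 0. Of 9 tested markers of plasmacytoid dendritic cells none passed (1 higher and 0 lower at an unadjusted p under 0.05, 1 higher in DESeq2). Their summed level was 907 and 816 CPM in KO and 786 and 839 CPM in WT, and Klk1 was at 0. The gene with the smallest p was Siglech, at 9.13 and 3.15 CPM in KO and 1.58 and 0.121 CPM in WT (adjusted p = 0.0856).

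In KO 3.77% of all genes tested were called higher and 3.01% lower. All 13 tested monocyte and macrophage markers had a positive log2 fold change, with a median of 1.20, and none passed in edgeR. Of them 6 had an unadjusted p under 0.05 and DESeq2 called 1. Their summed level was 186 and 160 CPM in KO and 136 and 122 CPM in WT, with Fcgr1 at no more than 3 counts in any library. Cd68, a lysosomal protein of macrophages, was at 26.6 and 22.2 CPM in KO and 13.9 and 14.1 CPM in WT (adjusted p = 0.0942), and the receptor gene Ccr2 at 95.1 and 75.6 CPM in KO and 91.0 and 77.3 CPM in WT. Of 10 mast cell and basophil markers 6 rose and all 10 had a positive log2 fold change. Their median was 2.67, the highest of the lists and above that of the class II genes, 1.57. The summed level was 417 and 277 CPM in KO and 155 and 155 CPM in WT, with none at 0. Cma1 (5.43) had 25 and 1 counts in WT, and Tpsb2 (3.96) had 58 and 15, and both rose. Cpa3, a mast cell protease, was at 83.4 and 45.9 CPM in KO and 9.77 and 9.94 CPM in WT (2.71, adjusted p = 0.000502). The part of these cells in the class II values was not tested. The summed level of T cell and innate lymphoid cell markers was 122 and 134 CPM in KO and 98.2 and 122 CPM in WT. Of the 7 tested, with a median log2 fold change of 1.03, Rora rose (1.34, adjusted p = 0.00450) and Il7r fell (-1.06, adjusted p = 0.0424). The call of Il7r was lost without WT replicate 2 and with upper quartile factors (edgeR adjusted p = 0.0558). Of 10 LSK genes, Cd34 fell (-0.61, adjusted p = 0.0408). That call was lost when WT replicate 1, WT replicate 2 or KO replicate 2 was left out, and with upper quartile factors (edgeR adjusted p = 0.0648).

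**Figure D5:**
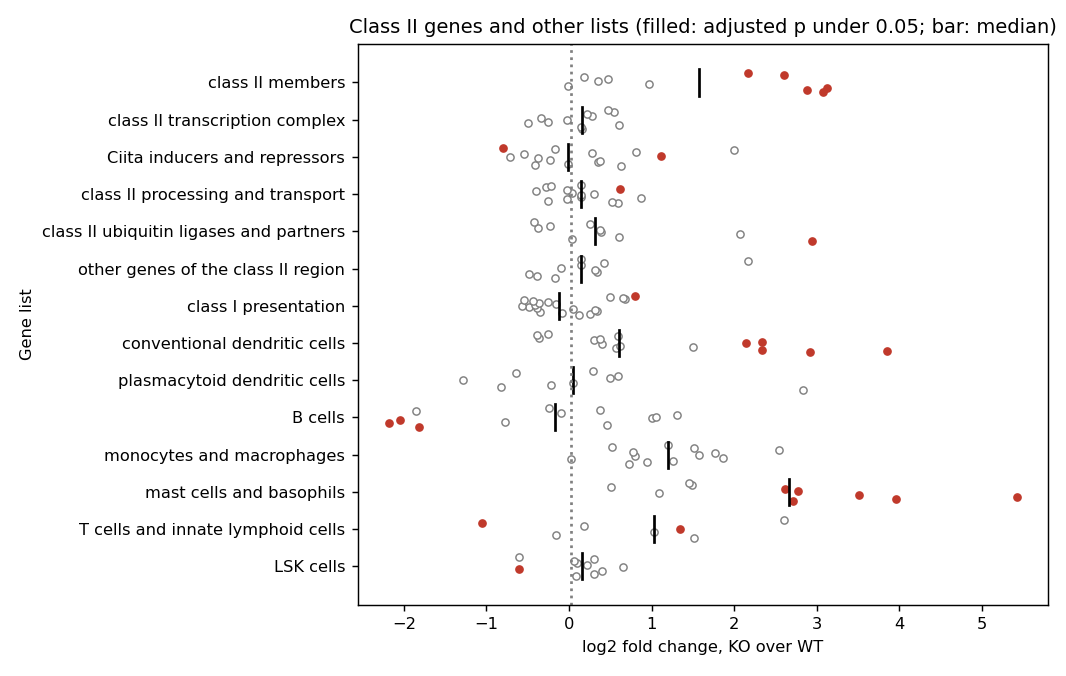
Log2 fold change of KO over WT for each tested gene of the class II genes and of the pathway and marker lists; filled points passed the adjusted threshold, bars are list medians and the dotted line is the median of all genes. Batf3, with no read in WT, is left out of the points; the class II genes split into 5 filled points above 2 and 5 open points under 1.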

How the data were processed

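Counts were deposited by the authors as raw reads per gene symbol. Per the submitters' processing notes the tools included HTSeq 0.8.0 and TopHat2 2.1.1, with SAMtools 1.5 and also Picard 2.9.4, on build mm10; the sources used here do not give annotation, strand setting or duplicate handling. Counts were tested in edgeR 4.0.16 (R 4.3.3): filterByExpr with a minimum count of 10 and total of 15, TMM factors, quasi-likelihood test of KO over WT with no covariate, threshold 0.05. The test code was run on simulated counts drawn from the fitted means and dispersions, which cannot check how well that model holds for these libraries. Lengths, positions and overlaps came from GENCODE M21, of the same build; per-kilobase levels use the longest coding transcript. The alternatives were DESeq2 1.42.0, DESeq2 size factors, upper quartile factors, other filters (none, minimum count 30), Rn45s removed, a replicate block and each library left out, for the ratios 0.5 counts added, and for ratios and per-kilobase levels union exon length, the last chosen after seeing the data. Genes named are the 10 class II genes, up to 4 of each pathway list and 3 of each marker list with the smallest p, those of highest level, and the 5 most like in profile; others were chosen after their values were seen. The members and lists were chosen with earlier results of these data known. Batches are not named in the labels.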

Additional observations from a re-analysis of the deposited data

How the results depend on the processing

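The 5 called class II genes kept their call and direction under all 11 alternatives, and the highest adjusted p was 0.0385, for Ciita. Their number was 5 throughout, and the median of the 10 genes was 1.65 with upper quartile factors and between 1.54 and 1.57 with each library left out. H2-DMa, near 0, changed sign to 0.07 with upper quartile factors and 0.01 with the stricter filter, and lay between -0.25 and 0.18 with a library left out, as H2-DMb2 did between -0.08 and 0.67; the cause was not tested. The whole-table counts moved more: 858 higher and 816 lower in DESeq2, 1056 and 987 with no filter, and between 160 and 997 higher and 95 and 1161 lower with a library left out, against 533 and 425; the cause was not tested. The replicate block gave 1312 higher and 1314 lower. The labels do not say whether same-numbered libraries were prepared together. Their deviations correlated at 0.076 across genes, which cannot decide that. Of the log2 ratios between class II genes, DO to DM (0.15) was -0.16 without KO replicate 2 and -0.03 without WT replicate 1, H2-Aa to H2-Ab1 (0.21) was -0.01 without WT replicate 2 and H2-Eb1 to H2-Ab1 (0.25) was -0.01 without KO replicate 2; with 2 libraries a group, leaving one out cannot move a ratio beyond the replicate spread, so this is no sign of stability. Depth limits H2-DMb2, with 61 to 115 counts per library.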
